A study of Mus musculus with 6 samples.

Results

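The genes described here serve the entry of new proteins into the endoplasmic reticulum, their folding and quality control there, and their onward transport. The set holds 42 genes chosen by name, and their probe sets were those whose only gene symbol in the platform annotation was one of these names. For a gene with several probe sets, the probe set with the highest mean signal stood for it. In this way 41 of the 42 genes were measured, out of 13002 genes tested on the arrays, and all 41 passed the filter on dim probe sets. Sec61g, the small gamma subunit of the translocon, was not analysed here, because its only probe set carried several symbols.

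Total RNA of whole mammary gland was compared between 10 and 5 weeks of age in female bitransgenic mice. All of these mice came from a cross of a line that the labels call LH with MMTV-neu, in which the mouse mammary tumour virus promoter drives the neu oncogene in mammary epithelium. Each age was represented by 3 arrays, and the RNA on an array was pooled from 3 animals, which makes 9 animals per age. No group without the transgenes was analysed here, so age is the contrast and genotype is the same throughout.

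A protein bound for secretion is recognised by the signal recognition particle while it is being made, and it is fed through the Sec61 channel into the endoplasmic reticulum. Signal peptidase then removes its leader, chaperones and disulfide isomerases fold it, and proteins that fail to fold are sent back for degradation. When unfolded protein builds up, the sensors Ire1 (Ern1), Atf6 and Perk (Eif2ak3) switch on Xbp1, Atf6 targets and Atf4, a programme known as the unfolded protein response. Milk-producing mammary epithelium is a tissue with a heavy load of secreted protein, and Xbp1 is known for its role in such secretory cells.

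The arrays reported linear signal intensities, and the median signal of an array lay between 156.4 and 172.5. Differences between ages are given on the scale of log2(signal + 32), as 10 weeks minus 5 weeks, and a gene was called when its adjusted p from limma was under 0.05. The values come from a whole tissue, so fewer cells of a type and less RNA per cell cannot be told apart. The labels do not say whether the pools were prepared separately, and the p-values measure the spread between these 6 pools.

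Of the 41 genes, 14 were called higher at 10 weeks, 1 was called lower and 26 were not called. Over all genes tested, 15.3% were called higher and 18.7% lower. The median difference was 0.18 over the 41 genes and -0.0037 over all 13002. In 21 of the 41 genes every 10-week pool lay above every 5-week pool, in 4 every 5-week pool lay above, and in 16 the ages overlapped. Over all genes the first pattern held for 24.0% and the second for 26.3%.

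On the brightest probe sets, the counts of calls differed between the steps of the pathway. The 13 targeting and translocation genes had a median difference of 0.44 with 6 called higher, against a median of 0.10 with 1 called higher among the 13 chaperones and folding enzymes. The 7 stress sensors and transcription factors had 3 called higher and a median of -0.069. Of the 4 genes of degradation 2 were called higher, and of the 4 genes of vesicle coats and retrieval 2 were called higher and 1 lower. The mean log2 value of the 13 translocation genes was 12.08 to 12.21 in the 10-week pools and 11.64 to 11.80 in the 5-week pools, so the ages did not overlap. The same mean for the 13 chaperones was 11.40 to 11.53 and 11.36 to 11.43, and the ages overlapped. The difference between these groups was not tested. With averaged probe sets the median was 0.34 for the translocation genes and 0.16 for the chaperones.

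**Figure D1:**
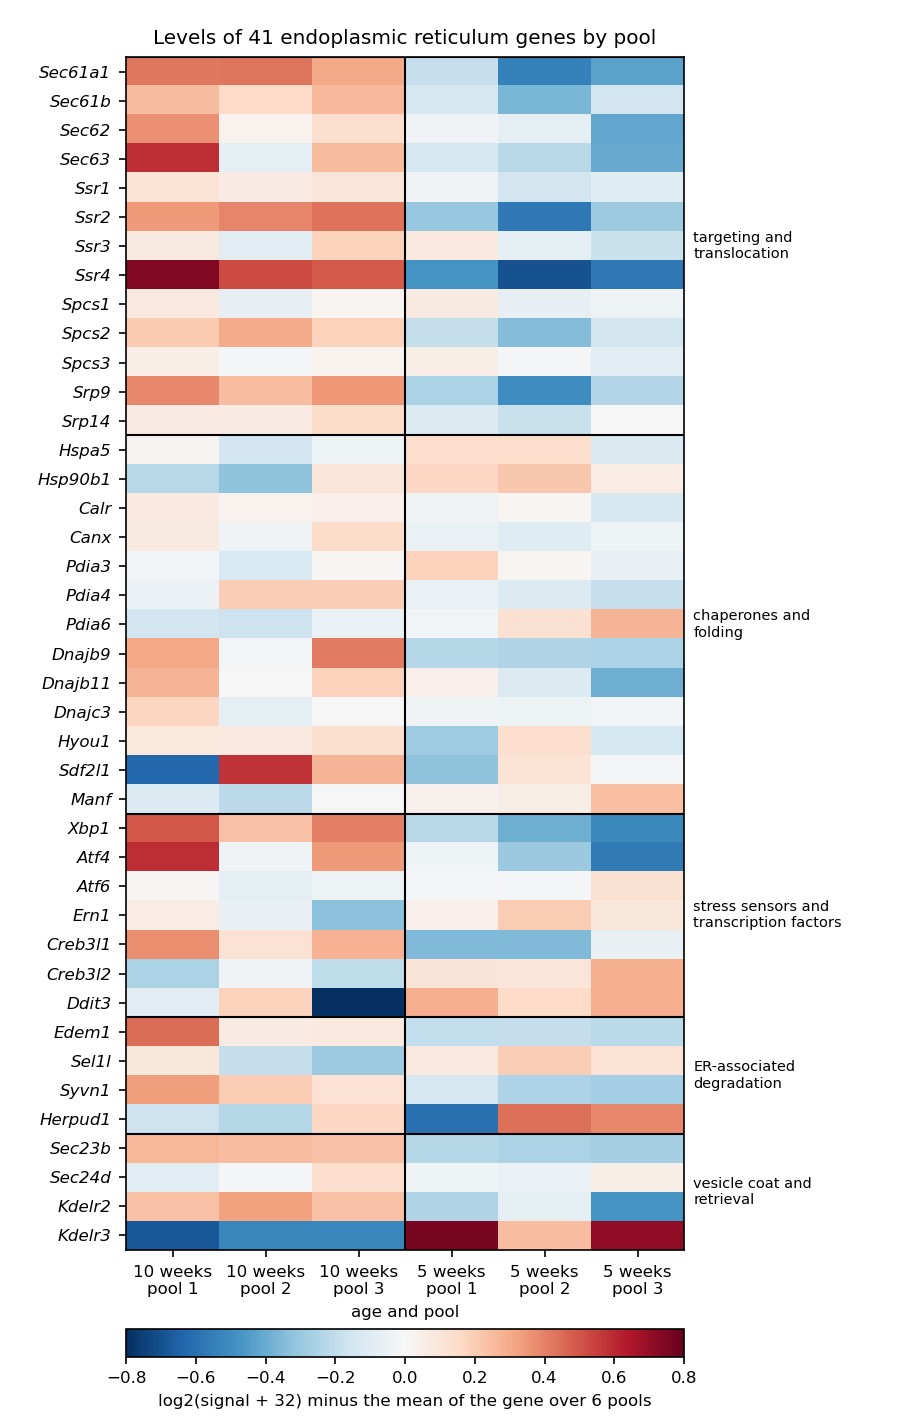
Heat map of the 41 genes (rows, ordered by step of the pathway) in the 6 pools (columns), coloured by log2(signal + 32) minus the mean of the gene over the 6 pools, with the colour scale ending at 0.8 on either side. The upper block of translocation genes is red in the 10-week pools for Sec61a1, Ssr2, Ssr4 and Srp9, the chaperone block is pale in both ages for most genes, and Kdelr3 in the last row runs the other way.

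Among the targeting and translocation genes, the largest difference was that of Ssr4, the delta subunit of the translocon-associated protein complex (TRAP), which sits beside the Sec61 channel and helps insert some signal sequences. The Ssr4 signal was 10647, 9154 and 8949 at 10 weeks, against 4553, 3913 and 4262 at 5 weeks. The lowest 10-week pool was well above the highest 5-week pool. Ssr4 rose 2.25-fold, a log2 difference of 1.17 ± 0.10 (SE) with an adjusted p of 0.000125. The size depends on the probe set, since the average of the Ssr4 probe sets rose by 0.52 (adjusted p = 0.034).

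Another TRAP subunit, Ssr2 (beta), had signals of 4818, 5004 and 5142 at 10 weeks, against 3078, 2549.5 and 3098 at 5 weeks. It rose 1.71-fold, by 0.78 ± 0.10 (SE) with an adjusted p of 0.000816. The alpha and gamma subunits were not called. Ssr1 (alpha) had the 10-week pools above the 5-week pools, with a difference of 0.18 (95% interval -0.0022 to 0.37), and Ssr3 (gamma) overlapped, with a difference of 0.12 (95% interval -0.12 to 0.36). The 95% intervals of the 2 called subunits, 0.54 to 1.01 for Ssr2 and 0.94 to 1.40 for Ssr4, lay above both of these on the brightest probe sets. This order did not hold on the others, since another Ssr1 probe set rose by 0.55 (95% interval 0.27 to 0.83) and the other Ssr4 probe sets had differences of 0.061 and 0.34 that were not called. The difference between subunits was not tested.

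Sec61a1, which forms the channel itself, gave 6968, 6992 and 6409 at 10 weeks, against 4576, 3566 and 3860.0 at 5 weeks. The ages did not overlap, and Sec61a1 rose 1.7-fold, by 0.77 ± 0.11 (SE) with an adjusted p of 0.00115. Sec61b, a small subunit of the same channel, gave 6936, 6479.8 and 6965 at 10 weeks, against 5268, 4508 and 5226 at 5 weeks. It rose by 0.44 ± 0.094 (SE), with an adjusted p of 0.00814.

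Sec62 and Sec63 assist the channel with proteins that arrive after their synthesis, and Sec63 also recruits the chaperone BiP to it. Sec63 gave 1783, 1109.6 and 1404 at 10 weeks, against 1064, 1001 and 879.6 at 5 weeks. All 10-week pools of Sec63 were above the 5-week pools, but they spread widely, and the difference of 0.51 ± 0.17 (SE) missed the threshold with an adjusted p of 0.0514. Sec62 gave 4588, 3630.0 and 3899.7 at 10 weeks, against 3485, 3389 and 2656 at 5 weeks, without overlap, and its difference of 0.35 had an adjusted p of 0.0833. The other 3 tested Sec62 probe sets had differences of -0.00074, 0.00070 and 0.047, and with its probe sets averaged Sec62 stood at 0.098 (adjusted p = 0.636). Sec63 is a borderline case, called in 6 of the 16 alternative settings.

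Srp9 and Srp14 form the pair of the signal recognition particle that pauses translation. Srp9 gave 2995, 2719.8 and 2917 at 10 weeks, against 1911, 1610.4 and 1939.7 at 5 weeks, and it rose 1.57-fold, by 0.65 ± 0.11 (SE) with an adjusted p of 0.00227. Srp14 gave 5428, 5419.9 and 5744 at 10 weeks, against 4806, 4575 and 5201 at 5 weeks. Its ages did not overlap either, but its difference of 0.19 (95% interval -0.012 to 0.39) was not called. This contrast depended on the probe set. Other Srp14 probe sets were called higher at 0.54 (adjusted p = 0.00937) and 0.34 (adjusted p = 0.0462), while another at 0.27 was not called. The Srp14 average was 0.33 (adjusted p = 0.0389). The other Srp9 probe set had a difference of 0.23 and was not called (adjusted p = 0.137), and the Srp9 average was 0.44 (adjusted p = 0.00447).

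Signal peptidase was represented by 3 subunits. Spcs2 gave 4607, 4900.2 and 4532 at 10 weeks, against 3488, 3120.5 and 3598 at 5 weeks, and rose by 0.46 ± 0.093 (SE), with an adjusted p of 0.00668. Spcs1 and Spcs3 overlapped between ages, with differences of 0.020 (95% interval -0.18 to 0.22) and 0.042 (95% interval -0.17 to 0.25). The differences of all 13 translocation genes were above 0, except that Spcs1 fell just below 0 under quantile normalization, with averaged probe sets and without 10-week pool 1 or 5-week pool 2.

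**Figure D2:**
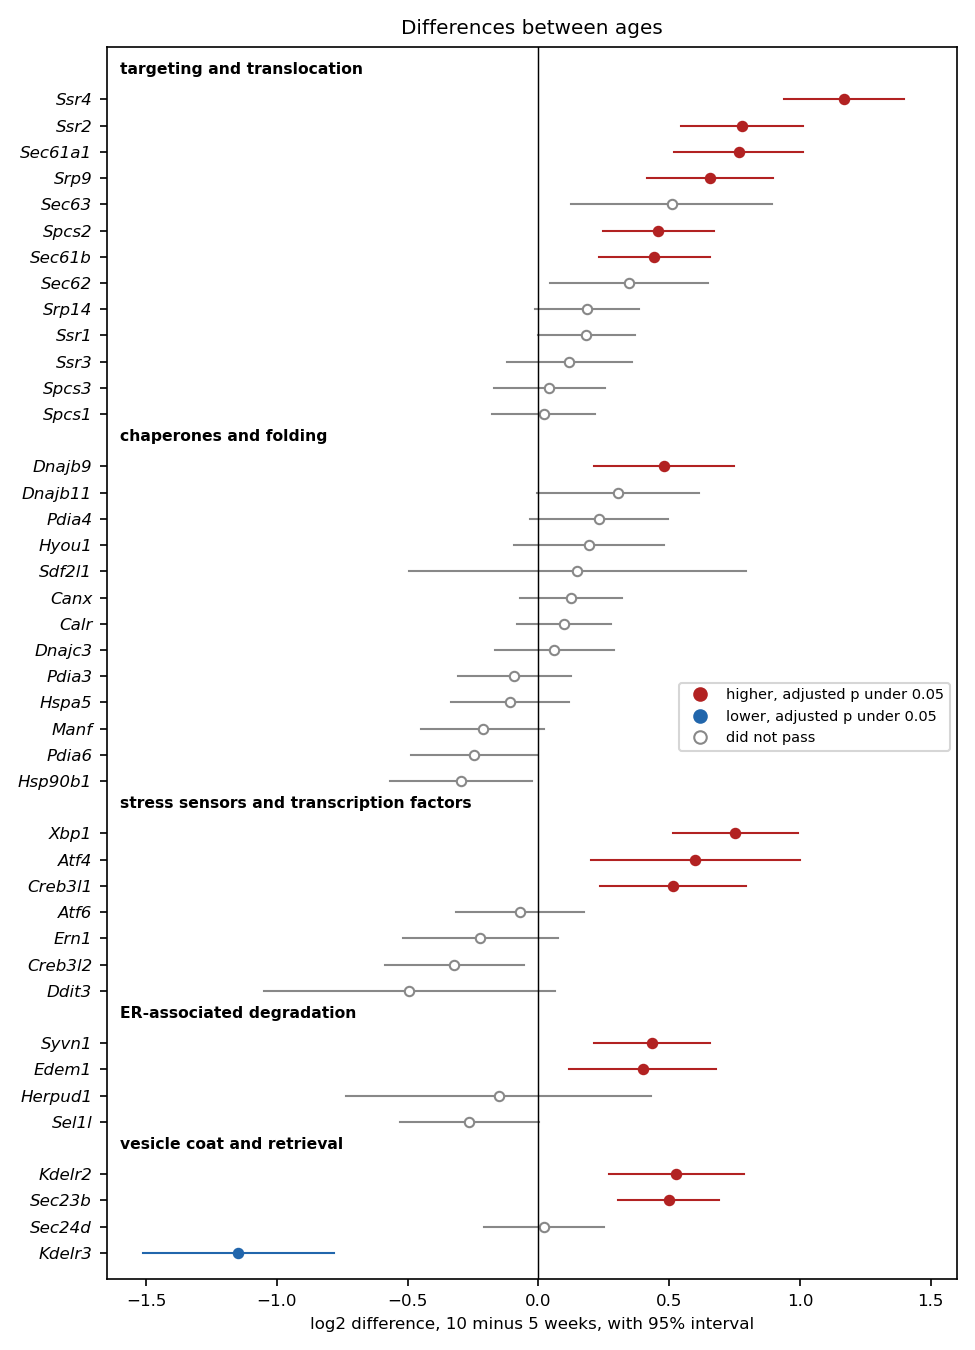
Difference between ages for each of the 41 genes, with the log2 difference (10 minus 5 weeks) on the horizontal axis, points for the estimate from limma, bars for its 95% interval and colour for the call. Filled red points mark the 14 genes called higher, with Ssr4 at 1.17 the farthest to the right, and the filled blue point marks Kdelr3 at -1.15.

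Of the 13 chaperones and folding enzymes, 12 were not called in either direction. Hspa5, which encodes BiP, the main chaperone of the endoplasmic reticulum and the usual marker of its stress response, gave 8666, 7674 and 8286 at 10 weeks, against 9398, 9378 and 7872 at 5 weeks. The ages overlapped, and the difference was -0.11 ± 0.10 (SE) (95% interval -0.34 to 0.12, adjusted p = 0.444). The other Hspa5 probe sets had differences of 0.096 (95% interval -0.20 to 0.39) and 0.035 (95% interval -0.18 to 0.25) and were not called either. Hsp90b1, the chaperone Grp94, gave 3828, 3578 and 4793 at 10 weeks, against 5022, 5207 and 4661 at 5 weeks. It overlapped by 1 pool at 10 weeks, and its difference of -0.30 ± 0.12 (SE) had an adjusted p of 0.0983. Under quantile normalization both were called lower, Hspa5 at -0.22 (adjusted p = 0.0402) and Hsp90b1 at -0.37 (adjusted p = 0.0332). Hsp90b1 was also called lower without 10-week pool 3, at -0.42 (adjusted p = 0.0261), and Hspa5 had a difference of 0.0068 with averaged probe sets.

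The lectin chaperones calreticulin and calnexin, which hold glycoproteins while they fold, were slightly higher at 10 weeks in every pool but were not called. Calr gave 9593, 9278 and 9368 at 10 weeks, against 8906, 9187 and 8319 at 5 weeks, a difference of 0.097 (95% interval -0.084 to 0.28). Canx gave 5470.1, 5109 and 5772 at 10 weeks, against 5022, 4872 and 5081 at 5 weeks, a difference of 0.12 (95% interval -0.070 to 0.32). The sign of the Calr difference changed under quantile normalization, where it was -0.019.

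Of the protein disulfide isomerases, which make and rearrange disulfide bonds, Pdia3 gave 5831, 5434 and 5964 at 10 weeks, against 6753, 5984 and 5678 at 5 weeks, and overlapped. Pdia4 gave 901, 1071 and 1072 at 10 weeks, against 895, 859 and 817 at 5 weeks, with the 10-week pools above and a difference of 0.23. Pdia6 gave 1999.8, 1975 and 2134 at 10 weeks, against 2183, 2421 and 2683 at 5 weeks, with the 5-week pools above and a difference of -0.25. The other tested Pdia6 probe set had a difference of 0.16, and the average was -0.042 (adjusted p = 0.777). None of these 3 isomerases was called, with adjusted p of 0.504, 0.17 and 0.114. Outside the set, the isomerase P4hb was called higher at 0.37 (adjusted p = 0.0185) and Pdia5 lower at -0.57 (adjusted p = 0.0155).

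Dnajb9 (ERdj4), a co-chaperone of BiP and a known target of spliced Xbp1, was the one chaperone called. It gave 4841, 3867 and 5213 at 10 weeks, against 3324, 3294 and 3258 at 5 weeks. The 5-week pools lay close together and the 10-week pools spread above them, and Dnajb9 rose 1.39-fold, by 0.48 ± 0.12 (SE) with an adjusted p of 0.0158. Its call was lost without 10-week pool 1 (adjusted p = 0.0533) or 10-week pool 3 (adjusted p = 0.0563).

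The other co-chaperones and stress-induced folding factors were not called. Dnajb11 (ERdj3) had a difference of 0.30 and an adjusted p of 0.131 (0.18 without 5-week pool 3), and Dnajc3 (p58IPK) had 0.061 and 0.689. Hyou1 (Grp170), which exchanges the nucleotide of BiP, had 0.19 and 0.287. Manf, a secreted folding factor, gave 2776, 2590.4 and 3008 at 10 weeks, against 3075, 3097 and 3561 at 5 weeks. It lay higher at 5 weeks in every pool, with a difference of -0.21 and an adjusted p of 0.155. Sdf2l1, part of a BiP complex, gave 242, 598 and 478 at 10 weeks, against 306, 423 and 388 at 5 weeks. Its 10-week pools were the most scattered of the group, and its interval of -0.50 to 0.79 allows a change in either direction.

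Many chaperone genes carry the endoplasmic reticulum stress response element, ERSE, through which Atf6 and Xbp1 act together with NF-Y. It was searched as the boxes CCAAT and CCACG with 9 bases between them, on both strands, in windows from 250 bases before to 50 after the start of each gene in RefSeq (GRCm38.p6), and 34 of the 42 genes had such a window. The motif was found in 39 of 32851 promoters (0.119%), and 7 of these belong to the set. Of the 7, 6 are chaperone genes, Hspa5, Hsp90b1, Calr, Canx, Pdia6 and Dnajc3, and none of these was called, while the remaining gene, Syvn1, rose. None of the 11 translocation genes with a window held it. These 7 promoters are shown because the element is rare over all promoters and because 6 of the 11 chaperone genes with a window carry it. They read 5′ to 3′ along the strand of the gene and end before the start site, with both boxes in capitals. Hspa5 lies at chr2:34771840-34772089 on the plus strand, Calr at chr8:84847055-84847113 on the minus strand, Hsp90b1 at chr10:86705513-86705676 on the minus strand, Canx at chr11:50325780-50325838 on the minus strand, Pdia6 at chr12:17266471-17266529 on the plus strand, Dnajc3 at chr14:118937807-118937865 on the plus strand and Syvn1 at chr19:6046512-6046570 on the plus strand.
Hspa5: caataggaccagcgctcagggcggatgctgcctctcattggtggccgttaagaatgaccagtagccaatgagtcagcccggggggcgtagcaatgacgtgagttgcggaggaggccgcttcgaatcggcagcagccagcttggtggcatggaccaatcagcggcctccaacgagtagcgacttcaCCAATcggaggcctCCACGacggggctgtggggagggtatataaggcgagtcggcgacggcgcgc
Calr: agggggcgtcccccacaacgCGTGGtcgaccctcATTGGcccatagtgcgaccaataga
Hsp90b1: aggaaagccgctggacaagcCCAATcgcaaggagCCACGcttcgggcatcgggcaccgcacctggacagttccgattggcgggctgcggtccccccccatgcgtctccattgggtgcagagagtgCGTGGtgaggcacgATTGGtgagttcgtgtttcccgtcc
Canx: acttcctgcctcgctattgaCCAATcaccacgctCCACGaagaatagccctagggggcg
Pdia6: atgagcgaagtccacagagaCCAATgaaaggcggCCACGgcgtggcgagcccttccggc
Dnajc3: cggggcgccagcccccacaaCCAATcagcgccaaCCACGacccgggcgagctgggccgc
Syvn1: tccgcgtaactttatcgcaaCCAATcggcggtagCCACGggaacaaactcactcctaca

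Hsp90b1 held 2 copies of the element, in opposite orientations. Outside the set, 3 pathway genes held it. Ero1b, an oxidase that recharges the disulfide isomerases, rose by 0.90 ± 0.13 (SE) (adjusted p = 0.00132), and Derl3, a Derlin of the degradation machinery, rose by 0.80 ± 0.16 (SE) (adjusted p = 0.00562). Creld2, a stress-induced folding factor, gave 849.6, 683 and 869.8 at 10 weeks, against 775, 945 and 913 at 5 weeks, overlapped, and was not called. Of the 10 genes with the element, 3 rose and 7 were not called, where 15.3% of all genes were higher and 18.7% lower. Of the 13 chaperone genes of the set 12 were not called. The 6 chaperone genes with the element that were not called are therefore no result about the element. A match describes the letters in the window and not binding, and windows of 8 genes of the set, Sec61a1, Ssr2, Spcs3, Hyou1, Manf, Atf6, Creb3l1 and Kdelr2, were not in the table.

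Among the stress sensors and transcription factors, Xbp1 had the smallest adjusted p. Its signal was 17778, 14807 and 16644 at 10 weeks, against 10796, 9582 and 8817 at 5 weeks. The ages were far apart, and Xbp1 rose 1.68-fold, by 0.75 ± 0.11 (SE) with an adjusted p of 0.00107. These signals lie near the top of the range of the arrays, whose highest signals were 15339.6 to 22312.4. All 4 Xbp1 probe sets were called higher, with differences from 0.51 to 1.32. The arrays name the gene and not the splice form, so spliced Xbp1 mRNA, the product of active Ire1, was not measured.

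Atf4, the transcription factor of the amino acid and Perk branch, gave 7366, 4788 and 6196 at 10 weeks, against 4764, 3968 and 3294 at 5 weeks. The lowest 10-week pool was only just above the highest 5-week pool, and the difference of 0.60 ± 0.18 (SE) had an adjusted p of 0.0325. The call was lost without a filter (adjusted p = 0.0636), without a variance trend (0.0601), and without 10-week pool 1 (0.104), 10-week pool 3 (0.0862), 5-week pool 2 (0.0679) or 5-week pool 3 (0.1). The other tested Atf4 probe set had a difference of 0.27 and was not called (adjusted p = 0.114). With its probe sets averaged Atf4 rose by 0.43 (adjusted p = 0.0423). Ddit3, the factor Chop that acts downstream of Atf4 in prolonged stress, gave 264, 326 and 144 at 10 weeks, against 354, 319 and 354 at 5 weeks. Its 10-week pool 3 was by far the lowest of the 6 pools and 10-week pool 2 lay among the 5-week values, and its difference of -0.49 ± 0.25 (SE) had an adjusted p of 0.166 and became -0.20 without 10-week pool 3.

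The sensor Atf6 gave 840.5, 791 and 812 at 10 weeks, against 829, 830.3 and 911 at 5 weeks, with a difference of -0.069 (95% interval -0.31 to 0.17). Ern1, which encodes the sensor Ire1 that splices Xbp1, gave 957, 881 and 723 at 10 weeks, against 945, 1063 and 978 at 5 weeks, with a difference of -0.22 (95% interval -0.52 to 0.075) that was -0.042 with its probe sets averaged and -0.11 without 10-week pool 3. The ages overlapped in both genes and neither was called.

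Creb3l1 and Creb3l2 encode related transcription factors that are held in the membrane of the endoplasmic reticulum until they are cut free. Creb3l1 (OASIS) gave 2004, 1674 and 1874 at 10 weeks, against 1197, 1195 and 1474 at 5 weeks, and rose by 0.51 ± 0.12 (SE), with an adjusted p of 0.0139 that became 0.0505 without 10-week pool 1. Creb3l2 (BBF2H7) gave 768, 902 and 797 at 10 weeks, against 991, 989.8 and 1128 at 5 weeks. Its 5-week pools lay above its 10-week pools, but its difference of -0.32 ± 0.12 (SE) was not called (adjusted p = 0.0697), while its other probe set was called lower at -0.44 (adjusted p = 0.048). Within each array, log2 of Creb3l1 minus log2 of Creb3l2 was 1.14 ± 0.25 at 10 weeks, against 0.30 ± 0.064 at 5 weeks (SD over 3 pools each), with an exact two-sided permutation p of 0.1, the smallest that 3 against 3 pools can give. This was 1 of 3 such pairs, all chosen after the values were seen, so the p is no independent support, and adjusted over the 3 it is 0.1 for each.

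Another promoter motif, the C/EBP-Atf4 response element (CARE), marks genes that Atf4 is known to activate. It was searched as TGATGNAAN on both strands, a loose pattern found in 1299 of 32851 promoters (3.95%). Among the 42 genes and the 124 other pathway genes, 11 held it. Of the 10 that were measured, 6 were higher at 10 weeks, beside 15.3% of all genes, and all but Chac1 are named here after their values were seen: Chac1, which degrades glutathione, Asns, the asparagine synthetase, the stress factors Atf3, Trib3 and Nupr1, and Cnpy2, a Canopy protein of the endoplasmic reticulum. Txndc5, a disulfide isomerase, was lower at -0.35 (adjusted p = 0.0296), a call lost without a variance trend (adjusted p = 0.0699) and without 4 of the 6 pools in turn, with -0.60 when its probe sets were averaged. Herpud1, the retrieval receptor Kdelr1 (-0.12, adjusted p = 0.621) and the degradation factor Faf2 (-0.088, adjusted p = 0.599) were not called, and Cdnf was not measured. Of the 6 higher genes 5 were on the list of other stress sensing genes, of which 10 of 18 were higher. Of all 112 other pathway genes tested 43 were higher. The counts for CARE are therefore no result about the element.

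Chac1 gave 1554, 1001 and 812 at 10 weeks, against 397, 392 and 484 at 5 weeks, and rose 2.45-fold, by 1.29 ± 0.22 (SE) (adjusted p = 0.00269). Nupr1 gave 2575, 1593 and 1833 at 10 weeks, against 1022, 1086 and 1123 at 5 weeks, and rose by 0.85 ± 0.17 (SE) (adjusted p = 0.00569). Atf3 gave 634, 517 and 510.3 at 10 weeks, against 337, 275 and 334 at 5 weeks, and rose by 0.75 ± 0.15 (SE) (adjusted p = 0.00568). Asns and Trib3 rose less, by 0.47 (adjusted p = 0.021) and 0.48 (adjusted p = 0.0294), and both calls were lost without some pools, with adjusted p up to 0.0709 for Asns and 0.094 for Trib3. The elements of 4 of these genes are shown, picked among those that had risen, so they are no result about the element either. The motif is in capitals, and in Chac1, Atf3 and Nupr1 it lies on the opposite strand. Chac1 lies at chr2:119351028-119351076 on the plus strand, Asns at chr6:7693210-7693252 on the minus strand, Atf3 at chr1:191183416-191183464 on the minus strand and Nupr1 at chr7:126625553-126625601 on the minus strand.
Chac1: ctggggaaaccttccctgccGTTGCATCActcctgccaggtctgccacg
Asns: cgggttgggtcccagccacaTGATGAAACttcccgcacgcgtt
Atf3: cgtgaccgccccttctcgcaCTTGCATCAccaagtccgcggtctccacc
Nupr1: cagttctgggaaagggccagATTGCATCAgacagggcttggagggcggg

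**Figure D3:**
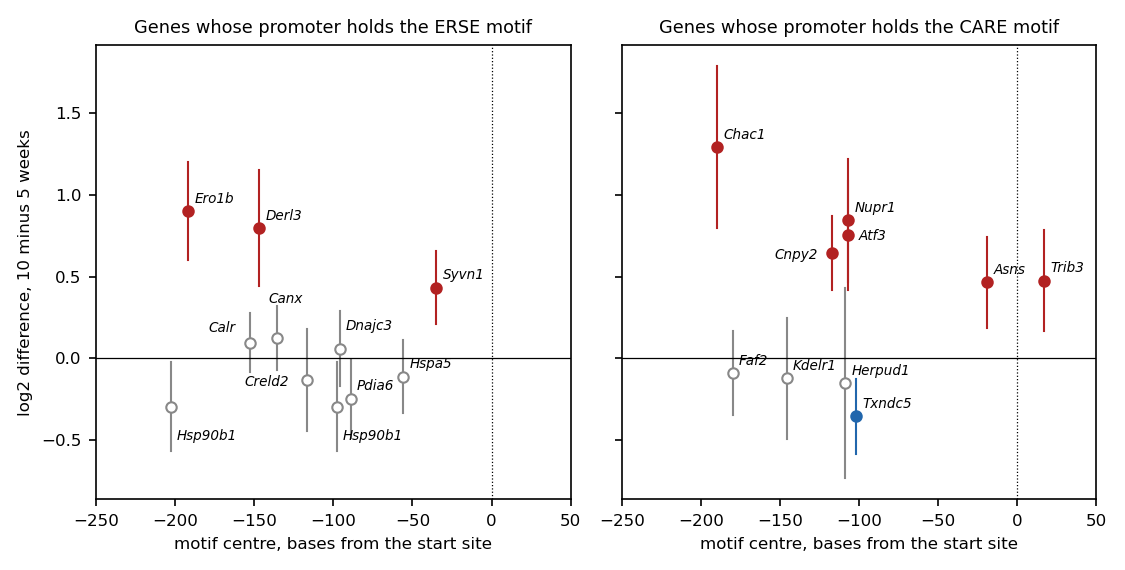
Log2 difference between ages (10 minus 5 weeks, with 95% interval) against the position of the motif centre in bases from the start site, for the genes of the set and of the wider pathway whose promoter holds ERSE (left) or CARE (right), with filled points for called genes. On the left Ero1b, Derl3 and Syvn1 lie above 0 and the chaperones, with Hspa5 and both sites of Hsp90b1, lie near or below it, while on the right 6 of the 10 measured genes were called higher and Txndc5 lower.

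The degradation genes were split. Syvn1, the ubiquitin ligase Hrd1 that marks misfolded proteins, gave 3225, 2943 and 2773 at 10 weeks, against 2324, 2149 and 2113 at 5 weeks, and rose by 0.43 ± 0.099 (SE), with an adjusted p of 0.0111. Its other tested probe set overlapped between ages with a difference of 0.091, and with both averaged Syvn1 rose by 0.26 (adjusted p = 0.048). Edem1, a lectin that hands glycoproteins to degradation, gave 2074, 1585 and 1598 at 10 weeks, against 1315, 1320.4 and 1299 at 5 weeks. Edem1 rose by 0.40 ± 0.12 (SE) with an adjusted p of 0.0409, but this call was lost without a filter (0.0587), without a variance trend (0.0693), with averaged probe sets (0.059) and without any 1 of the 6 pools (0.0501 to 0.116). Sel1l, the partner of Hrd1, gave 2724, 2233 and 2081 at 10 weeks, against 2704, 2937 and 2778 at 5 weeks. Its difference was -0.26 (adjusted p = 0.124), with 10-week pool 1 among the 5-week values, and without that pool it was called lower at -0.38 (adjusted p = 0.0402).

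Herpud1, a stress-induced scaffold of the Hrd1 complex, gave 1391, 1333 and 1764 at 10 weeks, against 1027, 2138 and 2052 at 5 weeks. The 5-week pool 1 value stands far below the other two of its age, and the difference was -0.15 ± 0.26 (SE) with an adjusted p of 0.695. Without that pool the difference was -0.49 and was called (adjusted p = 0.0467), and the other Herpud1 probe set was called lower at -0.86 (adjusted p = 0.00319). Its promoter holds the related element ERSE-II, ATTGG and CCACG with 1 base between them, which was found in 12 of 32851 promoters (0.0365%) and, in the set, also in Dnajb11. The Herpud1 ERSE-II, at chr8:94386357-94386407 on the plus strand, is shown because this was the only gene of the set with both ERSE-II and CARE. Its CARE starts at position -113 from the start site, outside the stretch shown.
Herpud1: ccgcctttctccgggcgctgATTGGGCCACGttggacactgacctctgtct

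Of the genes of vesicle coats and retrieval, Sec23b, a coat protein of the COPII vesicles that leave the endoplasmic reticulum, gave 3098, 3064 and 3038 at 10 weeks, against 2190.1, 2156 and 2141 at 5 weeks. The 3 pools of each age were almost equal, and Sec23b rose 1.41-fold, by 0.50 ± 0.085 (SE) with an adjusted p of 0.00285. Sec24d, a cargo-binding coat protein, gave 1743, 1846 and 2046 at 10 weeks, against 1816, 1796 and 1924 at 5 weeks, and overlapped, with a difference of 0.023 (95% interval -0.21 to 0.25).

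Kdelr2 and Kdelr3, receptors that return escaped chaperones from the Golgi, moved in opposite directions, while the third, Kdelr1, was not called. Kdelr2 gave 5195, 5528 and 5198 at 10 weeks, against 3734, 4192 and 3159.7 at 5 weeks, and rose 1.44-fold, by 0.53 ± 0.11 (SE) with an adjusted p of 0.00869. Kdelr3 gave 338, 381 and 380.4 at 10 weeks, against 971, 671 and 936 at 5 weeks, with every 10-week pool far below every 5-week pool. Kdelr3 was 2.21-fold higher at 5 weeks, a log2 difference of -1.15 ± 0.16 (SE) with an adjusted p of 0.00107. Within each array, log2 of Kdelr2 minus log2 of Kdelr3 was 3.75 ± 0.079 at 10 weeks, against 2.07 ± 0.46 at 5 weeks (SD over 3 pools each), another of these pairs, also with an exact permutation p of 0.1. Kdelr3 was the only gene of the set called lower on its brightest probe set.

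The Kdelr3 promoter held the unfolded protein response element (UPRE), TGACGTGG, the site of Xbp1 and Atf6, which occurred in 222 of 32851 promoters (0.676%) and, in the set, also in Sec24d. Of 9 other pathway genes with it, 4 were higher, 1 lower and 4 not called. Of all 112 other pathway genes tested 43 were higher and 9 lower, and of all genes 15.3% and 18.7%. These counts are too small to read as a result about the element. The Kdelr3 element is shown because Kdelr3 was the gene called lower. It lies at chr15:79516358-79516405 on the plus strand, with the element in capitals on the opposite strand.
Kdelr3: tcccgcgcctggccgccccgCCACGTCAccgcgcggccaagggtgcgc

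Other probe sets of the same genes bear on how far a value rests on 1 probe set. The 41 genes had 98 tested probe sets, 57 of them besides the brightest, and 28 genes had more than 1. Of the 57 others, 13 were called higher and 2 lower, where 28.8% of all probe sets tested were called in either direction. No gene had calls in both directions. Sec61a1, Spcs2 and Xbp1 had another probe set called higher, out of 9 called genes with another tested. Canx, Dnajc3, Sec63, Srp14 and Ssr1 were called higher, and Creb3l2 and Herpud1 lower, on a probe set other than the brightest. The second Sec63 probe set rose by 0.86 ± 0.14 (SE), the second Ssr1 probe set by 0.55 ± 0.13 (SE), the Canx one by 0.48 ± 0.11 (SE) and the Dnajc3 one by 0.46 ± 0.11 (SE). For 8 genes the brightest probe set has a name ending in _s_at or _x_at, the platform's mark for probes that may match related transcripts.

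**Figure D4:**
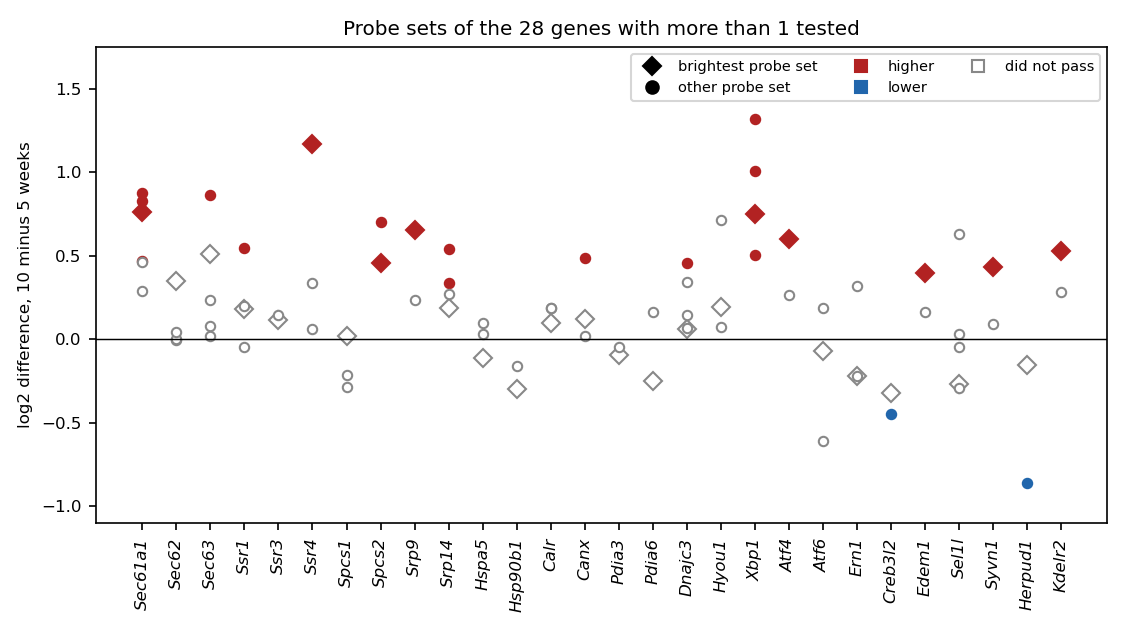
Log2 difference between ages for every tested probe set of the 28 genes with more than 1, with diamonds for the brightest probe set of a gene, circles for the others and filled symbols for those called. The 4 Xbp1 probe sets all lie above 0.5, whereas Ssr4 has 1 called probe set at 1.17 and others near or below 0.34, and Herpud1 has its second probe set at -0.86.

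The other genes of the same steps were read from 6 lists of 124 genes, of which 112 were tested. Of these 43 were higher and 9 lower at 10 weeks, with a median difference of 0.17, beside 15.3% and 18.7% of all genes. In targeting and translocation 6 of 15 rose and 1 fell. Sec11c, a catalytic subunit of signal peptidase, gave 3528, 3389.7 and 3241 at 10 weeks, against 1488, 1326 and 1146 at 5 weeks, and rose 2.54-fold, by 1.35 ± 0.11 (SE) (adjusted p = 0.000116), which was 0.72 (adjusted p = 0.00647) with its probe sets averaged. Tram1, a translocon partner, rose by 0.59, and Srprb, a subunit of the receptor of the signal recognition particle, by 0.52. Sec61a2, the second channel gene, gave 779, 746 and 730.5 at 10 weeks, against 933, 915 and 1128 at 5 weeks. It was called lower at -0.38 (adjusted p = 0.044), against the rise of Sec61a1, but the call was lost under 4 other settings and without any 1 pool (adjusted p up to 0.115). With its probe sets averaged Sec61a2 was -0.71 (adjusted p = 0.00207). Within each array, log2 of Sec61a1 minus log2 of Sec61a2 was 3.12 ± 0.049 at 10 weeks, against 1.98 ± 0.26 at 5 weeks (SD over 3 pools each), the last of the 3 pairs, with an exact permutation p of 0.1.

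N-glycosylation, the transfer of sugar chains onto the entering protein, had 8 of 14 genes higher and 1 lower. The subunits Magt1, Dad1 and Rpn2 of the oligosaccharyltransferase rose by 0.58, 0.51 and 0.55. Tusc3, the alternative to Magt1 in the same enzyme, gave 698, 666 and 762 at 10 weeks, against 1135, 1114 and 1286 at 5 weeks, and fell, with a difference of -0.71 ± 0.11 (SE) (adjusted p = 0.00225). Folding had 7 of 26 higher and 5 lower. Fkbp11, a prolyl isomerase of secretory tissues, gave 4787, 4058 and 4076 at 10 weeks, against 930.1, 891 and 884 at 5 weeks, and had the largest rise of any pathway gene, 4.64-fold or 2.21 ± 0.10 (SE) (adjusted p = 1.74e-05), which was 1.21 with its probe sets averaged. Serp1, which stabilises membrane proteins at the translocon, rose by 0.94. Fkbp14, a prolyl isomerase that acts on collagens, gave 290.1, 436 and 457 at 10 weeks, against 1182, 1071 and 1276 at 5 weeks, and was 2.87-fold higher at 5 weeks, a difference of -1.52 ± 0.17 (SE) (adjusted p = 0.000401).

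Among other genes of stress sensing, 10 of 18 rose and 1 fell, with a median of 0.43. Eif2ak3, which encodes the sensor Perk, gave 2005, 1908 and 1850.4 at 10 weeks, against 1163, 1139 and 1172 at 5 weeks, and rose by 0.71 ± 0.095 (SE) (adjusted p = 0.000825). Creb3, a relative of Creb3l1, rose by 0.71. Wfs1, a membrane protein that restrains Atf6, was called lower at -0.40 (adjusted p = 0.0247), a call lost with median centring (adjusted p = 0.0525) and without some pools (adjusted p up to 0.0783). In degradation 6 of 16 rose and none fell, led by Edem2 at 1.11, Rnf5 at 0.63 and Edem3 at 0.55. In vesicle transport 6 of 23 rose and 1 fell. The cargo receptor Surf4 rose by 0.88, the exit site scaffold Sec16b by 0.65 and the small GTPase Arf1 by 0.42. The COPII GTPase Sar1a was lower at -0.27 (adjusted p = 0.0444), a call lost under 4 other settings, with -0.072 when its probe sets were averaged, and without 5 of the 6 pools in turn.

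**Figure D5:**
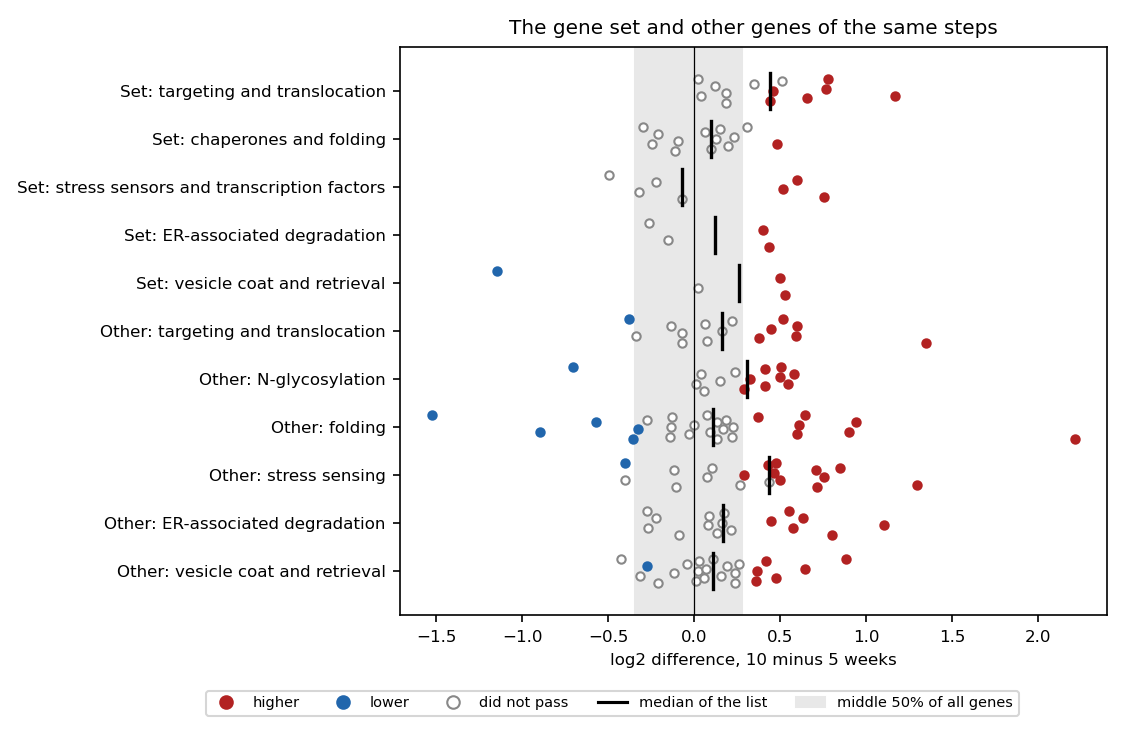
Log2 difference between ages (horizontal axis) for the 41 genes of the set by step, above, and for the 112 other genes of the same steps, below, with 1 point per gene, a bar at the median of each list and a grey band for the middle 50% of all genes tested. The medians of the translocation genes of the set (0.44) and of the other stress sensing genes (0.43) lie to the right of the band, and Fkbp11 at 2.21 and Fkbp14 at -1.52 are the outermost points.

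Markers of mammary epithelium, among them the milk proteins Csn2, Csn3, Lalba and Wap, were present in every pool, and markers of several cell types moved with age. Over all genes tested, 15.3% were higher and 18.7% lower at 10 weeks. Of 12 markers of luminal and secretory epithelium 7 were higher and none lower at 10 weeks, and their summed signal was 121410 to 139274 at 10 weeks and 76782 to 98135 at 5 weeks. Elf5, a transcription factor of alveolar cells, rose by 1.20 ± 0.14 (SE) and Epcam, a surface protein of epithelium, by 0.93 ± 0.16 (SE). Of the milk proteins, Lalba rose by 1.04 (adjusted p = 0.00606). Csn2 (0.11, adjusted p = 0.506), Csn3 (0.18, adjusted p = 0.24) and Wap (0.68, adjusted p = 0.1) were not called. Signals of Csn2 (11817 to 15709) and Csn3 (13928 to 19167) lie near the top of the range of the arrays, whose highest signals were 15339.6 to 22312.4. Lalba itself gave the highest signal of 10-week pool 1. Of 7 fibroblast markers 6 were lower at 10 weeks, with summed signals of 55978 to 59456 against 77920 to 95008, and Col1a1, a chain of type I collagen, had a difference of -1.05 ± 0.11 (SE), which was -0.56 with its probe sets averaged. The part of these shifts in the results of the set was not tested.

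Plasma cells, which also depend on Xbp1 and the translocon, were a mixed list. Igha, the IgA heavy chain, rose by 3.07 and Jchain, which joins antibody polymers, by 1.96. Irf4 and Sdc1 were called lower, with differences of -1.68 and -0.85, Mzb1 and Prdm1 were not called, and Tnfrsf17 was left out as dim. The summed signal of the 7 plasma cell markers was 6318 to 8447 at 10 weeks and 5128 to 5731 at 5 weeks. None of the B cell markers was called, and 5-week pool 2 stood apart with 3681 against 697 to 1328 in the other pools. Lower at 10 weeks were 3 of 6 adipocyte markers, 3 of 10 of skeletal muscle and 5 of 6 of endothelium, and of 6 macrophage markers 2 were higher and 3 lower. Over all genes tested 18.7% were lower and 15.3% higher. All 6 adipocyte, 10 muscle and 6 endothelial markers had differences below 0, called or not, and the muscle median was -2.14. The summed muscle signal was 6411, 49250 and 45038 in 10-week pools 1 to 3, against 107730, 60262 and 112801 in the 5-week pools. Every 10-week pool thus lay below every 5-week pool, and 10-week pool 1 was by far the lowest. No marker of any list was listed at 0 in any pool. The part of plasma cells, muscle and the other cell types in the results was not tested either.

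Of the 15 genes called on their brightest probe set, 11 kept their call and direction under all 16 alternatives. These were Sec61a1, Sec61b, Ssr2, Ssr4, Spcs2, Srp9, Xbp1, Syvn1, Sec23b, Kdelr2 and Kdelr3. The exceptions were Dnajb9, Atf4, Creb3l1 and Edem1. Without 10-week pool 1, the pool with little muscle signal, 10 genes were called higher and 2 lower, and without 10-week pool 3 11 were called higher and 2 lower.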

How the data were processed

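The authors deposited linear signal intensities, 1 per probe set and array, and the deposited intensities of each array average 500 once 2% at either end is trimmed. The labels give total RNA labelled with biotinylated UTP. The signal algorithm, the scan dates and any batch are not given in the sources used here.

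Each array held 45101 probe sets, and the 64 controls were removed. Signals below 1 were raised to 1, and 32 was added before taking log2, so differences of dim genes come out too small. The dimmest 40% by mean were dropped before the test of the remaining 27022 probe sets. Then limma 3.58.1 in R 4.3.3 (lmFit, eBayes with a variance trend, 4 residual degrees of freedom) compared the ages over all of these, two-sided, with Benjamini-Hochberg adjustment and a threshold of 0.05. Each age had 3 arrays, which limits the precision, and an exact permutation of 3 against 3 pools cannot give a p under 0.1. Symbols came from the platform annotation, where 34945 of 45037 probe sets had 1 symbol, 932 several and 9160 none, and were checked against a RefSeq table.

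All genes of the set are named. Of each other pathway list the 3 genes with the smallest adjusted p in the main direction and the largest call the other way are named. Genes named for a promoter motif, P4hb, Pdia5, Elf5, Epcam, Col1a1, the milk protein values, the plasma cell markers and the collagen list were added after the values were seen. The set, the lists and the motifs were chosen with earlier results of these data known. Promoters are from a RefSeq table of GRCm38.p6 that held 34 of the 42 genes. Retrieval signals at the protein ends were planned and were not analysed here.

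On simulated data with 27022 probe sets for 10 against 5 weeks, 0% of 50 changed probe sets were found when the simulated log2 change was 0.5, 46% for a change of 1, 72% for 2 and 70% for 3. Of 96 calls there, 2 were false. Only 50 probe sets were changed at each size there, while 28.8% of all probe sets tested were called in the data. The adjustment was therefore stricter in the simulation, and its shares do not give the share found in the data. Alternatives changed the offset, filter, normalization, variance model, array weights and probe set rule, and left out each pool. Plots used Python 3.11.15 and matplotlib 3.10.9.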

Additional observations from a re-analysis of the deposited data

How the results depend on the processing

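No paired analysis was possible because the replicate numbers follow accession order and pair no pools. Over the 16 alternatives, 10 to 15 genes of the set were called higher. The count called lower was 1, and it was 3 under quantile normalization, 2 with averaged probe sets and 1 to 2 without 1 pool. Of the other pathway genes 9 were lower, 5 with median centring or without a variance trend, and 4 to 7 without 1 pool. The median of the translocation genes was 0.44, 0.35 under quantile normalization, 0.34 with averaged probe sets and 0.34 to 0.48 without 1 pool. That of the chaperones was 0.097, 0.034 under quantile normalization, 0.16 with averaged probe sets and 0.063 to 0.11 without 1 pool. Among the genes of the text that were compared setting by setting, signs turned only in ones that were not called. Without 1 pool the differences of these ran from -0.014 to 0.062 for Spcs1, -0.011 to 0.12 for Dnajc3 and -0.10 to 0.50 for Sdf2l1. They ran from -0.49 to 0.030 for Herpud1, -0.040 to 0.074 for Sec24d, -0.25 to 0.046 for Kdelr1 and -0.21 to 0.22 for Mzb1. Under quantile normalization Spcs1 was -0.070 and Calr -0.019. With averaged probe sets Spcs1 was -0.16, Hspa5 0.0068 and Sel1l 0.013. With array weights Mzb1 was 0.030. The cause was not tested. Sdf2l1, Ddit3 and Mzb1 were dim, with scattered pools, and 3 pools per age limit every value.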

Other observations

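A further list held enzymes and partner proteins of the endoplasmic reticulum that act on collagen chains. They were listed after the values had been seen, so they were not tested as a list. Of 15 such genes 14 were tested, and 10 were lower and 2 higher at 10 weeks, with a median difference of -0.85, beside 18.7% lower and 15.3% higher of all genes. Nothing can be read from these counts about the list, since it was chosen on its values. The list also left out P4hb, a subunit of prolyl 4-hydroxylase, which was higher at 10 weeks by 0.37 (adjusted p = 0.0185). Plod2, a lysyl hydroxylase, gave 558, 517 and 675 at 10 weeks, against 3257, 2907 and 2113 at 5 weeks, and it was 4.49-fold higher at 5 weeks, a difference of -2.17 ± 0.17 (SE) (adjusted p = 8.15e-05). P4ha1, a prolyl 4-hydroxylase, gave 225, 349.5 and 353 at 10 weeks, against 996, 1092 and 1107 at 5 weeks, a difference of -1.71 ± 0.17 (SE). The others lower at 10 weeks were P4ha3 (-1.25), P3h3 (-1.25), Plod1 (-1.11), Crtap (-0.96), P3h4 (-0.87), Serpinh1, the collagen chaperone Hsp47 (-0.84), P3h1 (-0.82) and P4ha2 (-0.71).

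The lysyl hydroxylase Plod3 rose by 0.75 ± 0.11 (SE) and the prolyl 3-hydroxylase P3h2 by 1.12 ± 0.16 (SE), and their ages did not overlap. The galactosyltransferases Colgalt1 and Colgalt2 had differences of -0.26 and -0.37 and were not called. Fkbp14, with a difference of -1.52, and Kdelr3, with -1.15, were also lower at 10 weeks. Since the list was chosen on its values, nothing follows from this shared direction. Of the 7 fibroblast markers 6 were also lower at 10 weeks and Col3a1 was not called. The Col3a1 signals of 19161.7 and 15339.6 in 5-week pools 1 and 3 were the highest of those arrays. Summed signals of the fibroblast markers were 55978 to 59456 at 10 weeks against 77920 to 95008 at 5 weeks. The part of fibroblasts in the values of the list was not tested.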
